A study of Mus musculus with 12 samples.

Results

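Always-open distal intergenic regions are stretches of DNA far from any protein-coding gene that carried an ATAC-seq peak in every library of the series. ATAC-seq uses a transposase that cuts and tags DNA that is not wrapped tightly around nucleosomes, so a peak marks accessible chromatin. The autosomal peaks of all 12 lists were merged where they overlapped by 1 bp or more, which gave 144562 regions. Of these, 17343 regions (12%) held a peak in all 12 libraries and are called always-open here. The members are the 2964 always-open regions that were under 2000 bp long, had their centre outside every RefSeq protein-coding gene, and lay over 10 kb from any protein-coding gene boundary. They made up 17.1% of the always-open regions. The number depends on the definition: it was 1408 when noncoding RefSeq genes were kept at the same distance, and 397 when the peaks of every library had to cover at least 50% of the region. The members were chosen by the peak calls in the 12 lists, so their presence in every library is a description and not a result.

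The libraries came from mouse bone marrow-derived macrophages (BMDM), primary cells grown from bone marrow, of wild-type (WT) and Baf60a knockout (KO) genotype. Baf60a is one of the subunits that make up SWI/SNF, a complex that remodels chromatin. They were grown without treatment or with oxidised LDL (oxLDL) at 50 µg/ml for 48 h. The first cohort held 1 library for each of untreated WT, untreated KO, oxLDL WT and oxLDL KO. It used Omni-ATAC, and its labels name WT or KO with no alleles and no ApoE status. The ApoE KO cohort held 2 libraries for each of the same 4 combinations, made from cryopreserved cells. All of these carried the ApoE KO and the floxed Baf60a alleles (Baf60af/f); KO libraries were Lyz2 Cre+ and WT libraries were Lyz2 Cre-. Lyz2 Cre acts in myeloid cells, and the labels give no age. No label ties replicates to different animals or dishes. The p-values below therefore reflect how much these particular libraries vary, which may be technical variation alone.

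Distal accessible regions are, as background, the places where most cell-type-specific enhancers are found. In macrophages such enhancers are opened by the lineage factor PU.1 together with C/EBP and AP-1 proteins, and stimuli then act on this landscape. Remodellers of the SWI/SNF family move or evict nucleosomes, and enhancers are among the sites where they are known to act. Distal sites that stay open in all conditions can also be insulators bound by CTCF or start sites of noncoding RNA.

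The nearest thing to a sequence of a member that could be read here was the start of a long noncoding RNA (lncRNA) lying inside it. RefSeq windows from 250 bases before to 50 bases after an lncRNA start (GRCm38.p6, the assembly of mm10) lay wholly inside 143 members. Counting such start windows of every gene type, 178 members (6.01%) overlapped one. Among the 12 members with the highest mean peak strength, 4 overlapped a window of any type, as did 10 of the strongest 50. The next sequences, all 5′ to 3′ on the strand of the lncRNA, are lncRNA windows wholly inside members. In the first pair, which shows copied sequence in different members, capitals mark bases that lie outside every run of 12 bases shared by both windows. Gm26611 starts in the member near Trim43c at chr9:88858718-88859017 on the plus strand, and Gm26567 starts in the member near Trim43a at chr9:88599390-88599689 on the plus strand.
Gm26611: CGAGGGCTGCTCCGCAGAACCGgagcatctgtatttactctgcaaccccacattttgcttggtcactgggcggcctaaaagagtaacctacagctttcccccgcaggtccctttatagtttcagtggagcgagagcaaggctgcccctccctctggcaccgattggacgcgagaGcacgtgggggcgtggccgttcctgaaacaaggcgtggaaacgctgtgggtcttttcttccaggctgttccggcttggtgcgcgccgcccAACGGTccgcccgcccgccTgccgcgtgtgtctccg
Gm26567: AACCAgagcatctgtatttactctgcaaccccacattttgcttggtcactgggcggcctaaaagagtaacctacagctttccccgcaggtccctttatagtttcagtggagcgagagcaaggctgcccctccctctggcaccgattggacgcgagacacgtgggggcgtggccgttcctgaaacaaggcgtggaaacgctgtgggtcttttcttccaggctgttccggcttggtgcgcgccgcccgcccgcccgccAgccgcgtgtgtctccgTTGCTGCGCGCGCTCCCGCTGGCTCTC

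The Gm26611 window shared 218 of its 289 runs of 12 bases (75.4%) with Gm26567, whose start lies 259 kb away. A copy of weaker likeness lay in another member on chromosome 9, in the window of Snhg5, a host gene of small nucleolar RNAs. The Snhg5 window shared 45 runs of 12 bases with that of Gm26567, but in the opposite orientation, as the reverse complement. Members on different chromosomes shared runs too. The Gm1976 window shared 74 with a window of E430024I08Rik in the same orientation. That of AA388235 shared 95 with LOC115487747 in the opposite orientation. Whether reads that fit several copies were kept, split or dropped is not given in the sources used here, so the strength of all these members is uncertain. Members without an lncRNA window inside could not be compared in this way. In the windows below capitals mark matches to 1 of 5 motif words on either strand, which may overlap. The first pair comes from the strongest 12 members. The last pair was chosen after the values were seen, because Ptgs2os2 (lincRNA-Cox2) neighbours an inflammatory gene and Gm42089 holds a PU.1 word. The windows are 1700096K18Rik at chr5:25529768-25530067 (plus), Gm26901 at chr1:7398047-7398346 (minus), Ptgs2os2 at chr1:150164899-150165198 (minus) and Gm42089 at chr11:90225519-90225818 (minus).
1700096K18Rik: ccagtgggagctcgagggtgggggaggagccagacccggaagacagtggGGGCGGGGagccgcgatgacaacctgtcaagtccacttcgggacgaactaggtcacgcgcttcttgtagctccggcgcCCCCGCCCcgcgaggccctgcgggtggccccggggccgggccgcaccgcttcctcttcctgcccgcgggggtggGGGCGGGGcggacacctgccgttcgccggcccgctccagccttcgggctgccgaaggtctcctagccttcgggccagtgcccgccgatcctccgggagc
Gm26901: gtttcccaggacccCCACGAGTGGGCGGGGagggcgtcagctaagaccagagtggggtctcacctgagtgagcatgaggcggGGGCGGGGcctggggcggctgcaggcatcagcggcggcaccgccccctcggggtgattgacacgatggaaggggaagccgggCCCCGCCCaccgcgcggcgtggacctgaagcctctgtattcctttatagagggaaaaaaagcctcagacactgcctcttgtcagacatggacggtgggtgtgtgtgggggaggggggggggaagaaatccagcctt
Ptgs2os2: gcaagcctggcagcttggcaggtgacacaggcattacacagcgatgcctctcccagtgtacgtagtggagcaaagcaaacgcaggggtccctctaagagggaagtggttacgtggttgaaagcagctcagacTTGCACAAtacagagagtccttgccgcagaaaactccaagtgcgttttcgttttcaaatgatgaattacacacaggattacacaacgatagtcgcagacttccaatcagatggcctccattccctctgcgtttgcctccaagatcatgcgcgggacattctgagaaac
Gm42089: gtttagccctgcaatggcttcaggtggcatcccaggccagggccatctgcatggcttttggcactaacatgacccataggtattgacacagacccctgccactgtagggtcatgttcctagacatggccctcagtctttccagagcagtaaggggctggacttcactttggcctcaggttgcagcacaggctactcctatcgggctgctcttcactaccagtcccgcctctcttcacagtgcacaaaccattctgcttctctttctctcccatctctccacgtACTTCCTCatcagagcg

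The words searched were GAGGAAGT for PU.1, TGANTCA for AP-1, TTGC followed by any 2 bases and AA for C/EBP, and GGGCGGGG for SP/KLF factors. The CTCF word was CCA, any 2 bases, AG, any 2 bases and GGC. The 1700096K18Rik window, 74.0% GC, held 3 SP/KLF words, and Gm26901 held 3 SP/KLF words and 1 CTCF word. The Ptgs2os2 window held 1 C/EBP word and the Gm42089 window 1 PU.1 word. Taking 1 window per member, the PU.1 word was in 11.9% of the 143 windows, in 10.1% of 217 windows inside distal regions called in 1 to 11 libraries, in 2.77% of 8554 lncRNA windows outside every region, and in 3.25% of all 31396 autosomal windows. The AP-1 word was in 16.1%, 18.4%, 9.06% and 7.84% of the same 4 sets. The C/EBP word was in 14.7%, 17.5%, 12.5% and 10.9%. The CTCF word was in 3.5%, 7.37%, 1.98% and 2.47%, and the SP/KLF word in 12.6%, 7.37%, 3.06% and 17.8%. Thus the PU.1 word was about as frequent in members as in distal regions that were not always called, and rarer in the other sets. These are shares without a test, and a match is not a binding site.

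The labelled cell type was checked by peaks within 1 kb of the boundaries of marker genes. A peak stood there in all 12 libraries for 10 of 12 macrophage markers, with Itgam and Fcgr1 the exceptions. The same held for 0 of 6 B cell, 1 of 6 T and NK cell, 1 of 6 neutrophil, 1 of 5 autosomal erythroid and megakaryocyte, and 1 of 6 dendritic cell markers. Single libraries held more, so markers of other lineages were not closed throughout. In the first cohort each library had peaks at 3 to 5 B cell, 2 to 4 T and NK cell and 2 to 3 neutrophil markers. It also had them at 3 to 5 erythroid and megakaryocyte, 3 to 5 dendritic cell and all 12 macrophage markers. The ApoE KO libraries had at most 3 of any other lineage and 10 to 12 of macrophages. First-cohort lists held 80394 to 138132 autosomal peaks, and ApoE KO lists 24397 to 44524. They hold peaks and no reads, so the sequencing depth is unknown. KO lists were longer than WT lists in 3 of the 4 cohort-by-treatment strata throughout, and in the ApoE KO untreated stratum WT replicate 2 (39303 peaks) was longer than KO replicate 2 (33267).

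By the rule, all members were under 2000 bp long and over 10 kb from any protein-coding gene boundary. Their median length was 1043 bp, and together they covered 3224 kb. Their median distance to the nearest protein-coding gene was 38.4 kb, with quartiles of 19.5 and 86.1 kb and the farthest at 1812 kb. Distal regions that were called in only 1 to 11 libraries had nearly the same median distance, 39.2 kb. Such regions were far more numerous: of 38660 distal regions under 2000 bp, 7.67% were called in all 12 libraries and 29.5% in a single library. Another 923 regions were called in 11 of 12, and 442 of these lacked only the shortest list, ApoE KO oxLDL WT replicate 2. Just inside the distance limit lay the regions near Pisd and Bnip3, with mean strength percentiles of 67.6 and 96.6, and just outside lay those near Jak2 (69.9) and Jag2 (58.2). Just inside the length limit lay the regions near Ptgs1 (47.4) and Tomm20 (70.9), and just outside those near Cdkn2b (81.9) and Csf2ra (85.5). The mean of the Pisd region describes no library: its list percentile was 8.61 to 22.2 in the first cohort and 88.3 to 98.96 in the ApoE KO cohort.

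Strength was first described within each list, as the percentile of a region's highest deposited peak score among all autosomal peaks of the same list. Such list percentiles cannot be compared between lists of different length. In the first cohort the median member stood at 89.4 (untreated WT), 92.5 (untreated KO), 84.9 (oxLDL WT) and 88.0 (oxLDL KO). In the ApoE KO cohort it stood at 62.2 and 71.2 (untreated WT), 78.0 and 70.6 (untreated KO), 62.03 and 55.5 (oxLDL WT) and 71.2 and 70.5 (oxLDL KO). A member was therefore typically a strong peak of a long first-cohort list and a moderately strong peak of a short ApoE KO list. Always-open regions within 1 kb of a gene boundary were stronger than members in 11 of 12 libraries, with medians of 73.97 to 92.3; the first untreated KO library was the exception, at 92.1 against 92.5. Always-open regions inside genes had medians of 55.8 to 91.1, close to those of members.

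**Figure D1:**
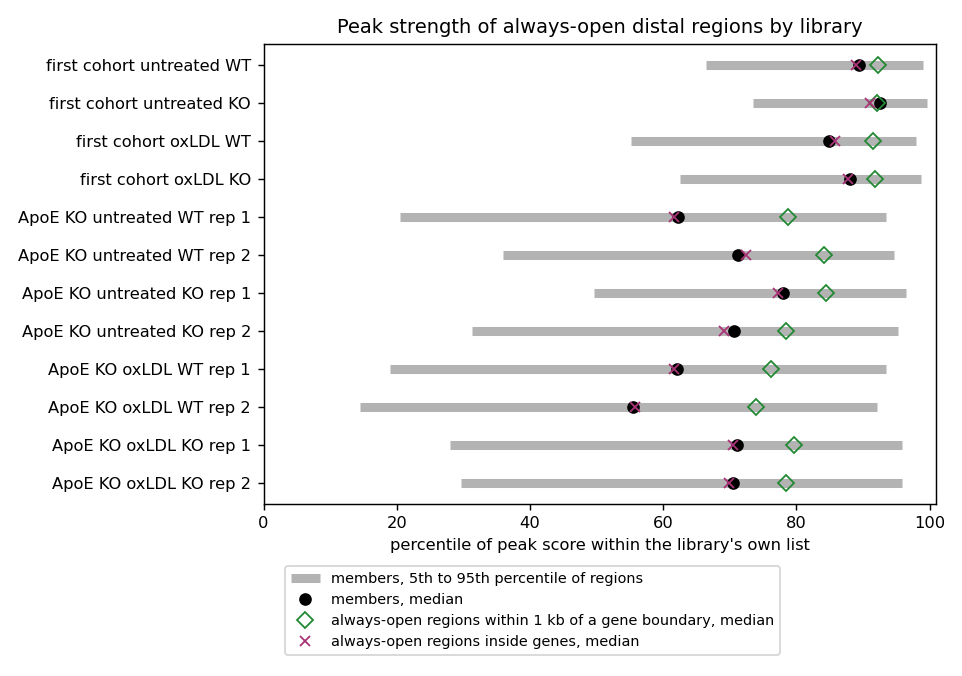
List percentile of peak score (horizontal axis, 0 to 100) in each of the 12 libraries (rows). Grey bars span the 5th to 95th percentile of the 2964 members, black points are their medians, and open diamonds and crosses are the medians of always-open regions at gene boundaries and inside genes; member medians run from 55.5 to 92.5 and lie left of the diamonds in all but the first untreated KO library.

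The summits of members moved by about as much as those of other always-open regions. Over the 8 ApoE KO libraries, whose files give summits, the highest peak's summit moved over a median range of 114 bp, and 1242 members (41.9%) kept it within 100 bp. The same range was 133 bp at gene boundaries and 118 bp inside genes, where the regions were also longer (median 1442 and 1091 bp).

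The 12 members with the highest mean list percentile over the 12 libraries lay between 98.8 and 99.5. The strongest was at chr14:120137378-120138244, 95.4 kb from Oxgr1, a receptor for oxoglutarate, with Mbnl2, a splicing regulator, on the other side; its list percentile was 98.4 at the lowest, 99.6 at the median and 99.98 at the highest library. The region at chr2:11429226-11430218 lay between Prkcq, a protein kinase C, and Pfkfb3, which makes an activator of glycolysis, 41.7 kb from the latter; its list percentiles were 97.3, 99.4 and 99.98 on the same scale. Both ranked near the top in every library of both cohorts. Another 2 of the 12 lay on chromosome 8 near the predicted genes 4930467E23Rik and 9530057J20Rik, and the others lay near Zfp958, Utp18, Trim43c, Atp6ap1l, Cct8l1, Gm51425, Pcmtd1 and Fgf6. The nearest gene had no always-open boundary region for 8 of the 12. The 5 members with the lowest mean list percentile, 28.8 to 31.7, lay near Adamts2, Armc1, Pik3c3, Tent5c and Mkln1. The Adamts2 region stood between the list percentiles 31.1 and 82.5 in the first cohort and between 2.42 and 39.0 in the ApoE KO cohort. Its highest value, in the first untreated KO list, was below the member median there, 92.5.

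Members with a whole lncRNA window inside had a median mean percentile of 78.6, and the 2786 members that overlapped no start window of any gene type had 72.3. In all, 784 members (26.5%) had their centre inside a noncoding RefSeq gene, of which 719 were lncRNAs, and 1556 (52.5%) lay inside or within 10 kb of one. "Distal" here therefore refers to protein-coding genes alone. Outside chromosome 18, which was not searched, mature microRNA sequences lay in 4 members. These were near A630001G21Rik (miR-8096), Lta4h (miR-7688), Rab11fip4 (miR-193a) and Gm5141 (miR-713).

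Many members stood in series along the same intergenic stretch. When members under 50 kb apart were chained, 1510 of them (50.9%) had at least 1 neighbour, and 45 chains held 5 or more. The longest chain, 12 members over 152 kb at chr8:126757712-126910069, lay between Irf2bp2, a transcriptional corepressor, and Tomm20, a mitochondrial import receptor. Their mean list percentiles ran from 48.5 to 81.0. Chains of 9 members followed in 3 places. The first, between Cd47, the surface signal that restrains phagocytosis, and Bbx, spanned 158 kb and ran from 44.4 to 88.9. The second, beyond Trib1, a pseudokinase known in macrophage lipid handling, spanned 160 kb and ran from 66.2 to 96.7. The third, between Atf3, a stress-induced transcription factor, and Nenf, spanned 95.5 kb and ran from 60.7 to 95.8. Strength thus differed widely within each of these 4 chains.

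The nearest genes were described with lists that hold known regulators and markers of macrophages and of other cells. Transcription factors of myeloid cells were the nearest gene of 89 members (3.00%), compared with 2.56% of the 35696 distal regions called in 1 to 11 libraries and 1.25% of all always-open regions. AP-1 and immediate early genes were nearest to 44 members (1.48%, against 0.913% and 0.542%). Macrophage receptors and surface genes were nearest to 25 (0.843%, against 0.541% and 0.600%), and inflammatory and NF-kB genes to 21 (0.709%, against 0.473% and 0.409%). Cholesterol and lipid genes were nearest to 16 (0.540%, against 0.482% and 0.479%) and interferon and antigen presentation genes to 7 (0.236%, against 0.143% and 0.213%). Cytoskeleton and motility genes were nearest to 7 (0.236%, against 0.303% and 0.530%). For other cell types, lymphocyte genes were nearest to 19 members (0.641%, against 0.563% and 0.202%), and neuronal adhesion and channel genes to 7 (0.236%, against 0.258% and 0.144%). These shares carry no test, and the size of the intergenic stretch beside each gene was not taken into account.

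**Figure D2:**
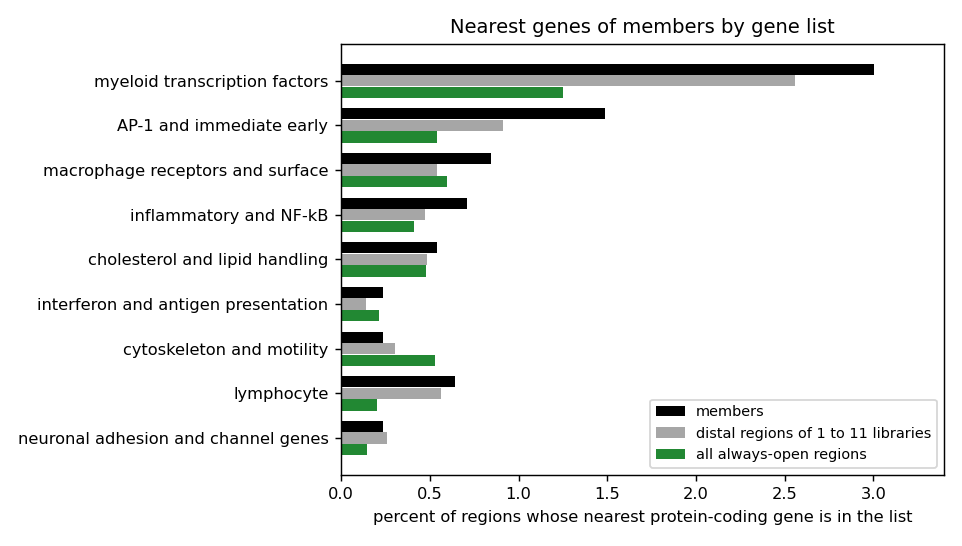
Percent of regions (horizontal axis) whose nearest protein-coding gene belongs to each of 9 gene lists (rows). Bars are the 2964 members (black), the 35696 distal regions called in 1 to 11 libraries (grey) and the 17343 always-open regions (green); the longest black bar is that of myeloid transcription factors at 3.00%.

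Among genes of the transcription factor and AP-1 lists, Klf4 and Myc were each nearest to 10 members, Zeb2 and Btg1 7 each, Klf6 and Zfp36l2 6 each, and Cebpb, Maf, Prdm1, Gadd45a and Ier5 5 each. Klf4, a zinc finger factor of macrophage activation, had members from 12.1 to 581 kb away, with mean list percentiles of 56.7 to 91.3. Those of Myc, the growth regulator, lay 48.1 to 402 kb away and ran from 42.3 to 89.3. Cebpb, a factor that drives macrophage inflammatory genes, had its 5 members between 27.01 and 87.3 kb, from 67.6 to 92.3. The 12 strongest of the 133 members next to genes of these 2 lists lay near Atf3 (95.8), Klf10 (95.5), Fos (94.6), Id2 (93.8), Zfp36l1 (93.4), Cebpb (92.3), Prdm1 (92.0), Klf4 (91.3), Klf6 (90.7), Zfp36l2 (89.8), Myc (89.3) and Hhex (88.5), where each value is the mean list percentile. In the other 7 lists, the highest mean list percentiles belonged to members that were often far from their nearest gene. That of a member 335 kb from Satb1, a chromatin organiser of the lymphocyte list, was 98.1, and that of one 591 kb from Cdh12, a cadherin of the neuronal list, was 96.8. The value was 96.5 for a member 311 kb from Ptprc, the pan-leukocyte receptor CD45, and 95.9 for the Ptgs2os2 region, 57.0 kb from Ptgs2, which encodes cyclooxygenase-2. The median over a list was highest for the neuronal one, at 84.4, and 71.9 for the inflammatory one. The members were nearest to 1870 different genes, of which 1103 (59.0%) also had an always-open region within 1 kb of a boundary. The share was 48.5% for genes nearest to variably called distal regions and 43.1% for all autosomal protein-coding genes.

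To compare libraries, each always-open region was given a rank from 0 to 100 among the 17343 always-open regions of the same library, by its highest score. Ranks have the same scale in every library but always average to 50, so they show a region's place among the others and not its absolute accessibility. A region that lost its peak in any library cannot be among them, so losses of a peak are not seen here. Strength within a cohort was reproducible across members: Spearman's rho over the 2964 members was 0.725 to 0.925 between first-cohort libraries and 0.682 to 0.852 between ApoE KO libraries. It was 0.317 to 0.625 across cohorts, which differ in library protocol, peak caller, cryopreservation and stated ApoE status; the part of each was not tested. These are descriptions across regions that share libraries. In 487 members (16.4%) every first-cohort library ranked above every ApoE KO library, beside 14.7% of all always-open regions, and in 302 (10.2%) the reverse held, beside 17.5%.

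Members ranked higher in KO than in WT macrophages. The median rank of the members was 47.5 in untreated WT and 56.4 in untreated KO of the first cohort, and 40.5 in WT and 45.9 in KO after oxLDL. The ApoE KO libraries gave 39.1 and 37.4 in untreated WT, 44.7 and 45.5 in untreated KO, 41.5 and 39.3 in oxLDL WT and 44.4 and 44.8 in oxLDL KO. Within each cohort and treatment, all KO libraries thus lay above all WT libraries. Always-open regions at gene boundaries went the other way, with medians of 54.2 to 60.6 in KO and 59.7 to 64.7 in WT libraries. Always-open regions inside genes moved the same way as members, with medians of 45.9 (WT) and 49.8 (KO) in untreated and 43.2 and 45.1 in oxLDL cells of the first cohort. Their ApoE KO medians were 38.5 and 39.8 in WT and 42.9 and 43.1 in KO untreated, and 40.9 and 39.7 in WT and 43.4 and 43.8 in KO after oxLDL. A KO shift in rank was thus not seen in distal members alone.

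**Figure D3:**
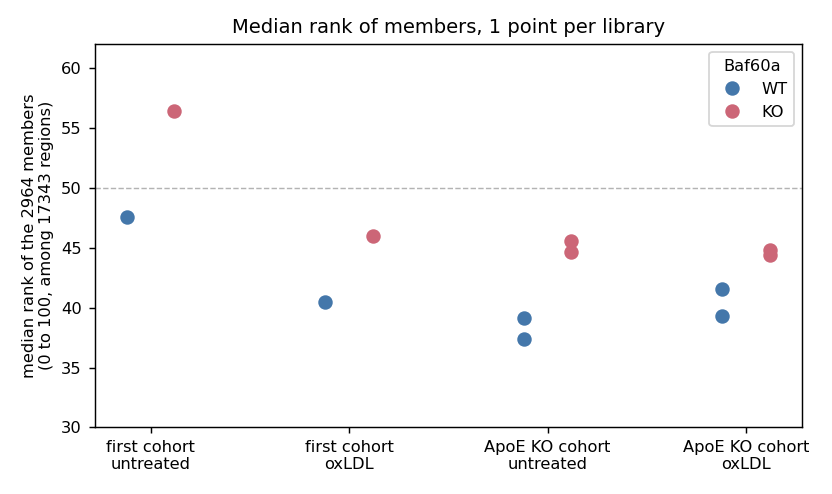
Median rank of the 2964 members (vertical axis, 0 to 100, axis from 30 to 62) in each library, 1 point per library, by cohort and treatment. KO points (red) lie above WT points (blue) in all 4 strata; the dashed line at 50 is the median of all 17343 always-open regions.

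Region by region, the shift was small and broad. In limma's moderated test with Benjamini-Hochberg adjustment over all 17343 regions, the KO minus WT difference was above 0 in 2012 members (67.9%), beside 47% of all always-open regions. It was above 0 in 59.5% of those inside genes, with a median of 1.94 rank points, and in 31.2% of those at gene boundaries, with a median of -2.69. The median difference of members was 3.60 rank points, and that of all regions was -0.53. At an unadjusted p under 0.05, 477 members ranked higher in KO, 16.1% of them beside 7.94% of all regions, and 55 ranked lower, 1.86% beside 7.21%. At an adjusted p under 0.05, 2 members rose in KO, beside 0.0404% of all regions, and 0 fell, beside 0%. That number rested on single libraries: it was 45 without the first oxLDL KO library, 9 without the first untreated WT library and 5 without the first oxLDL WT library. It was 1 without the first untreated KO library or without any 1 of the ApoE KO untreated or oxLDL KO libraries, and 0 in the ApoE KO cohort alone. In 211 members (7.12%) every KO library ranked above every WT library within all 4 strata, beside 3.26% of all regions, and in 28 (0.945%) below, beside 3.38%. KO lists were mostly longer, and the part of list length in the shift was not tested; in the untreated ApoE KO stratum the longer WT replicate 2 list had the lowest member rank, 37.4, and the shorter KO replicate 2 list 45.5. The file names of the ApoE KO cohort carry 2 marks of unstated meaning, L001 and L003. Both untreated WT libraries and 1 oxLDL KO library carry L001, so in untreated cells genotype and mark cannot be told apart; among the L003 libraries after oxLDL, KO stood at 44.8 and WT at 41.5 and 39.3. Ranked by covered base pairs in place of score, the median difference of members was -0.01, so no such shift was seen in peak width, and without the 3 L001 libraries it was 2.27.

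The genotype difference of members was larger the farther they lay from a gene. Its median was 1.80 rank points for 769 members at 10 to 20 kb, 3.12 for 994 at 20 to 50 kb, 4.70 for 571 at 50 to 100 kb, 5.27 for 586 at 100 to 500 kb and 11.2 for 44 beyond 500 kb. The same order was seen in each cohort and treatment on its own, apart from the ApoE KO oxLDL stratum, where the nearest pair of bands both stood at 1.66. Beyond 500 kb the median KO minus WT difference was 15.2 (first, untreated), 8.23 (first, oxLDL), 19.9 (ApoE KO, untreated) and 5.81 (ApoE KO, oxLDL). Of these 44 members, 43 ranked higher in KO over the whole series, and 38, 38, 41 and 31 did so within the 4 strata in that order. They lay on 14 chromosomes next to 30 different genes, and 7 of them lay between Adam6a and Zfp386 on chromosome 12. In that stretch RefSeq lists immunoglobulin V segments, which are not counted as protein-coding genes. The median of the 44 was 5.98 without the 3 L001 libraries, 7.00 without the first oxLDL WT library and 3.59 by covered base pairs. These medians are descriptions without a test.

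**Figure D4:**
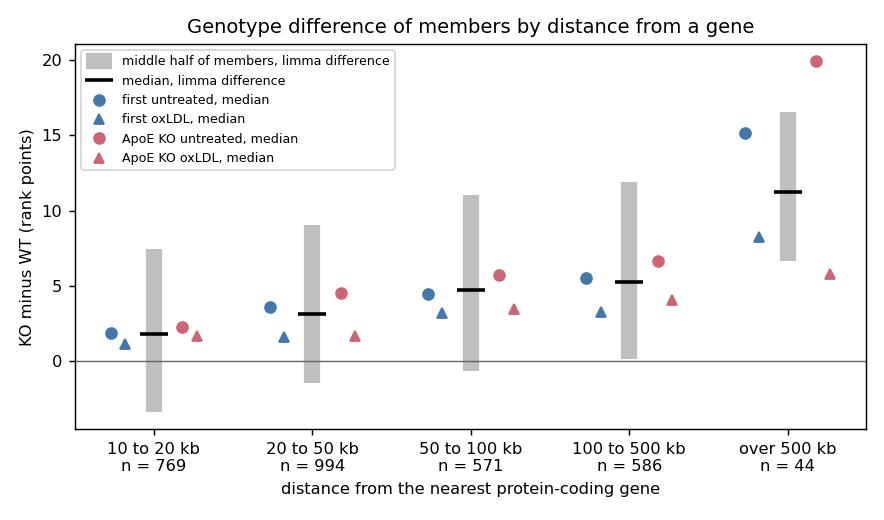
KO minus WT difference in rank points (vertical axis) for members in 5 bands of distance from the nearest protein-coding gene. Grey bars run from the lower to the upper quartile of members and black lines the median of the limma difference, and symbols are medians in each cohort and treatment; the black lines climb from 1.80 to 11.2.

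Of the 5 farthest members, 4 had a difference below the median of this band, 11.2. The one 1812 kb from G6pd2, between Pcdh7 and G6pd2, was strong throughout, with a mean list percentile of 96.8; its ranks were 83.3 to 96.2 in WT and 93.1 to 99.3 in KO libraries, and the difference was 5.63 ± 1.98 (limma difference ± SE, adjusted p = 0.196). The one 1642 kb from Pcdh18 differed by 5.42 ± 8.09 and the one 1412 kb from Cntnap5b by 4.30 ± 3.17. Another 2, 1535 and 1326 kb from Zeb2, a repressor needed for macrophage identity, differed by 13.8 ± 6.11 and 3.84 ± 6.36. None of these 5 passed the test.

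The clearest single region lay at chr5:72249993-72250767, between Commd8 and Corin and 49.6 kb from Corin, which encodes a protease that activates atrial natriuretic peptide. Its rank was 9.8 and 23.3 in the first-cohort WT libraries (untreated, then oxLDL) and 74.4 and 65.7 in the matching KO libraries. In the ApoE KO cohort it was 1.5, 10.2, 21.3 and 30.04 in WT and 49.3, 52.4, 72.2 and 74.4 in KO, untreated libraries first. No WT library reached any KO library. The difference was 48.7 ± 6.64 rank points (SE, limma adjusted p = 0.00544), and it stayed past the threshold when any 1 of the 12 libraries was left out. The ApoE KO cohort by itself gave 46.3 (adjusted p = 0.0797), and without the 3 L001 libraries 48.4 (adjusted p = 0.999), where fewer samples were left. By covered base pairs it was 11.03 (adjusted p = 0.735), and over the alternatives run the adjusted p ranged from 0.000581 to 0.999. The other 6 members of the same chain of 7, over 87.6 kb, differed by -5.29 to 14.4 points, and none passed the test.

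The second lay at chr19:52878518-52879493, 52.3 kb from Xpnpep1, an aminopeptidase gene, with Ins1 on the other side. Its rank was 17.96 and 40.2 in the first-cohort WT libraries and 72.2 and 64.5 in the KO libraries. In the ApoE KO cohort it was 7.5, 12.8, 25.7 and 30.04 in WT and 50.5, 46.3, 69.4 and 72.3 in KO. Again no WT library reached any KO library. The difference was 40.2 ± 6.56 (adjusted p = 0.0248), but it stayed past the threshold in only 4 of the 12 fits that left out 1 library, with adjusted p up to 0.186. The 8 libraries without which it missed were the first untreated KO, ApoE KO oxLDL WT replicate 1 and all 6 ApoE KO untreated and oxLDL KO libraries. The ApoE KO cohort by itself gave 40.7 (adjusted p = 0.0797), and covered base pairs gave 17.6 (adjusted p = 0.735). Over the alternatives run, the adjusted p ranged from 0.00448 to 0.999. Both regions also ranked higher after oxLDL in each genotype of the ApoE KO cohort and in first-cohort WT, but lower in first-cohort KO. Over the series the treatment difference was 14.9 ± 6.64 near Corin and 15.8 ± 6.56 near Xpnpep1. Neither passed the limma test (adjusted p = 0.501 and 0.471).

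**Figure D5:**
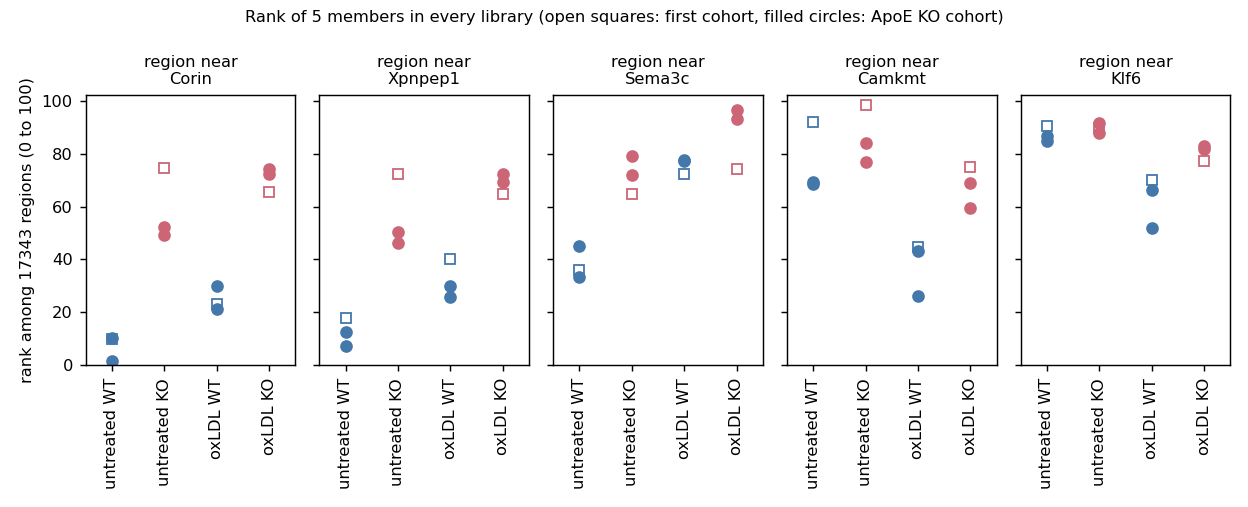
Rank among the 17343 always-open regions (vertical axis, 0 to 100) of 5 members in each library, by genotype and treatment; open squares are the first cohort and filled circles the ApoE KO cohort. In the panels near Corin and Xpnpep1 all red KO points lie above all blue WT points, and in the Klf6 panel the oxLDL WT points, 52.0 to 69.8, lie below the untreated ones.

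In the other direction no member passed the test. The 5 with the smallest p, whose differences were negative, lay near Morn3 (-25.3 ± 7.51), Klf14, a Krüppel-like factor (-22.6 ± 6.75), Rgs13, a regulator of G protein signalling (-24.6 ± 7.46), Mrtfb, a coactivator of serum response factor (-17.8 ± 5.56) and Ptma (-13.7 ± 4.39), with limma adjusted p of 0.136 to 0.160. Among the gene lists, members next to inflammatory and NF-kB genes had a median genotype difference of 6.48, with 19 of 21 above 0, beside 67.9% of all members. The lymphocyte list stood at 6.62 (14 of 19 above 0) and the neuronal list at 16.7 (6 of 7). Myeloid transcription factors stood at 1.23 (51 of 89) and AP-1 genes at -0.99 (18 of 44), both below the 3.60 of all members. The cholesterol list stood at 1.94 (11 of 16), macrophage receptors at 2.37 (18 of 25), interferon genes at 0.11 (4 of 7) and cytoskeleton genes at 4.85 (6 of 7). No member of any of the 9 lists passed the test. Members with a whole lncRNA window inside had a median difference of 0.46, and the members that overlapped no start window of any gene type had 3.83.

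After oxLDL the members ranked lower in the first cohort, with 1 library per group. In the ApoE KO cohort they ranked slightly higher in WT and about the same in KO. The median rank of members in the first cohort was 47.5 and 56.4 untreated and 40.5 and 45.9 with oxLDL, for WT and KO. In the ApoE KO cohort the group means were 38.2 ± 1.23 (SD, n = 2) and 40.4 ± 1.58 for untreated and oxLDL WT, and 45.1 ± 0.629 and 44.6 ± 0.308 for KO. In WT the oxLDL libraries of that cohort lay just above the untreated ones, 39.3 against 39.1 at the closest, while in the first cohort the oxLDL WT library lay below. The KO groups of the ApoE KO cohort overlapped. By limma, the median oxLDL minus untreated difference of members was -1.50, beside 0.45 for all regions, and the ApoE KO cohort by itself gave -0.16. At an unadjusted p under 0.05, 122 members ranked higher, 4.12% beside 4.8% of all regions, and 281 lower, 9.48% beside 4.57%. At an adjusted p under 0.05, 0 members rose (beside 0.00577%) and 0 fell (beside 0%). Without ApoE KO oxLDL WT replicate 1, 1 member was called, and on the normal score of the rank 5 were. In 35 members (1.18%) every oxLDL library ranked above every untreated library within all 4 combinations of cohort and genotype, beside 1.45% of all regions, and in 73 (2.46%) below, beside 1.28%.

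The member nearest to the threshold that ranked higher after oxLDL lay 18.1 kb from Sema3c, which encodes a secreted semaphorin, at chr5:17556001-17557495. Its rank was 35.9, 33.4 and 45.0 in untreated WT, 72.4, 77.2 and 77.4 in oxLDL WT, 64.7, 79.0 and 71.8 in untreated KO and 74.2, 92.9 and 96.4 in oxLDL KO. Within WT every treated library lay above every untreated one. Within KO the same held inside each cohort: 74.2 against 64.7 in the first, and 92.9 and 96.4 against 79.0 and 71.8 in the other. With cohorts pooled, the first-cohort treated KO library, at 74.2, lay within the untreated KO range. The difference was 26.8 ± 4.80 (adjusted p = 0.0875). The next 4 lay near Gli3, a Hedgehog pathway factor (29.4 ± 6.87), Ccdc186 (23.5 ± 5.63), D16Ertd472e (18.8 ± 4.78) and, in the immunoglobulin V segment stretch, 1017 kb from Adam6a (25.3 ± 6.60). In all 5, the genotype difference was also positive, between 17.0 and 23.0 points.

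Of the members that ranked lower after oxLDL, the one at chr17:85488504-85489444, 30.4 kb from Camkmt, a calmodulin methyltransferase gene, had the smallest p. Its rank was 91.9, 68.4 and 69.4 in untreated WT, 44.7, 43.3 and 26.1 in oxLDL WT, 98.4, 77.0 and 83.9 in untreated KO and 75.02, 59.5 and 68.9 in oxLDL KO. The treated libraries lay below the untreated ones in both genotypes (-28.6 ± 5.05, adjusted p = 0.0875). A member 24.0 kb from Klf6, a macrophage zinc finger factor, ranked 90.5, 84.9 and 86.5 in untreated WT, 69.8, 52.0 and 66.2 in oxLDL WT, 89.6, 91.6 and 87.6 in untreated KO and 77.4, 83.0 and 81.8 in oxLDL KO. Here too the treated libraries lay below the untreated ones in each genotype (-16.7 ± 3.43, adjusted p = 0.141). The other 3 lay near Gm51579 (-33.0 ± 6.75), Mdm1 (-28.6 ± 5.97) and Hs3st2 (-30.3 ± 6.82).

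Members next to genes of cholesterol and lipid handling had a median oxLDL difference of -6.80, with 4 of 16 above 0, beside 41.8% of all members and 53% of all always-open regions. Abca1, the transporter that exports cholesterol to apolipoprotein A-I, was nearest to 5 of them, 21.9 to 90.5 kb away. All 5 had a negative difference, from -14.1 to -4.63, and the smallest adjusted p was 0.377. The medians were -4.16 for macrophage receptors, -2.36 for interferon genes, -1.61 for myeloid transcription factors, -1.09 for cytoskeleton genes, -0.33 for lymphocyte genes, -0.04 for AP-1 genes, 1.197 for inflammatory genes and 2.07 for neuronal genes. None of these members passed the test.

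The genotype by treatment interaction, the test of whether oxLDL moved a rank differently in KO than in WT, called 0 members above or below 0 (beside 0% of all regions for each), with limma adjusted p of at least 0.991. At an unadjusted p under 0.05, 46 members were above 0, 1.55% beside 2.17% of all regions, and 95 below, 3.21% beside 2.09%. The 5 smallest p above 0 were near Iqgap1, a cytoskeletal scaffold (47.7 ± 14.4), Tle3, a corepressor (45.6 ± 14.8), Nfkbiz, an atypical IkB protein (40.9 ± 13.5), Fam161a (31.6 ± 10.8) and Irf2bp2 (36.8 ± 12.7). Those below 0 were near Kcnj3 (697 kb away, -45.3 ± 12.4), Gm38481 (-46.2 ± 13.5), Tcf4 (-30.0 ± 9.74), Olfr291 (-37.9 ± 12.3) and Lmo4 (514 kb away, -46.9 ± 15.3). Members next to neuronal genes had a median interaction of -20.8, with 0 of 7 above 0, those next to lymphocyte genes -10.6 (5 of 19) and those next to macrophage receptors -5.63 (5 of 25), beside 42.9% of all members and 50.8% of all always-open regions above 0. With 1 first-cohort library and 2 ApoE KO libraries per group, the standard errors of the interaction were 2.52 to 16.8 points in the regions named here.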

How the data were processed

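ATAC-seq was measured in 12 libraries of mouse BMDM. Per the submitters' processing notes, the tools included Bowtie2 2.3.4.1, bedtools 2.28.0 and SAMtools 1.2, with MACS2, MACS3, Picard, cutadapt, Trim Galore and FastQC, on build mm10. For their order and settings, the sources used here give nothing. The authors deposited 1 peak list per library, without pooling. The first-cohort lists give a peak score that the authors' caller wrote. The ApoE KO lists give a score, a fold enrichment, a summit, and −log10 p and q values, all as deposited by the authors; the −log10 values were not tested. No reads or counts were used, so depth and counting error are unknown, and the number of libraries limits the precision. Scores depend on depth and caller, so they were compared as percentiles within a list or as ranks within the always-open regions.

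Peaks were merged and matched to RefSeq genes (GRCm38.p6) in Python 3.11.15 with pandas 2.3.3 and numpy 2.4.6. Distances run from a region's centre to the nearest boundary of a protein-coding gene. For the ranks, limma 3.58.1 (R 4.3.3) was fitted with a mean-variance trend, genotype-by-treatment groups and cohort as terms, and Benjamini-Hochberg adjustment over 17343 regions at 0.05. The fit was tested on simulated data. Named regions were the strongest 12, weakest 5 and farthest 5 members, the chains with most members (4 named, since 3 tied for second place), the 12 strongest next to transcription factor or AP-1 genes, the members past the threshold or else the 5 with the smallest p in each direction, and the pairs nearest to each limit. Members at the Trim43a, Trib1, Abca1, Satb1, Cdh12, Ptprc, Ptgs2, Insig1, Actb, Ifnar2 and Mmd genes, and the microRNA hosts, were added after their values were seen. The members and gene lists were chosen with earlier results of these data known. Alternatives covered the list length, score, overlap, gene set, distance, rank scale, file-name mark, replicate block and each library left out. Motif shares are from RefSeq promoter windows, since a genome sequence was not used here.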

Additional observations from a re-analysis of the deposited data

Results flagged for a closer look

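On the X chromosome, which lies outside the autosomal rule, 409 distal intergenic regions held a peak in 4 of 4 first-cohort libraries, among 1549 X regions of any kind that did so. These peaks are a signal in data that no comparison above used. The ApoE KO lists used here cover autosomes, so the 409 regions have no value in that cohort and were compared with nothing.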

How the results depend on the processing

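The number of members was 397 when peaks had to cover at least 50% of the region, 1408 with the boundaries of every RefSeq gene and 16556 with the first cohort alone. It was 2967 to 3407 with 1 library left out. It stayed within 1.5 times of 2964 with lists of equal length (2441), scores of at least 50 (2034), limits of 5 kb (3576) or 20 kb (2195) and the ApoE KO cohort alone (3071).

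For genotype, 7 always-open regions were called, 2 of them members. The normal score of the rank called 154 (47 members) and the replicate block 3. Covered base pairs, fold enrichment, the ApoE KO cohort only and leaving out the 3 L001 libraries called 0 (0 members). With 1 library left out, 1 to 146 regions and 1 to 45 members were called. The median difference of members, 3.60, was -0.00961 by covered base pairs, which reversed its sign, and 2.27 without the L001 libraries; it was 2.96 to 4.33 with 1 library left out.

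For oxLDL, 1 region was called and 0 members. The normal score called 11 (5 members), and 0 regions were called by covered base pairs, fold enrichment, the ApoE KO cohort only, without the L001 libraries or with the file-name mark as a term. With 1 library left out, 0 to 3 regions and 0 to 1 members were called. The median, -1.50, was 0.119 by covered base pairs, reversed in sign, -0.201 by fold enrichment, -0.163 in the ApoE KO cohort only and -2.73 without the L001 libraries; it was -1.95 to -0.939 with 1 library left out. The interaction called 0 regions under every alternative run. Its median, -1.91, was -0.307 without the L001 libraries and -3.16 to -0.690 with 1 library left out.

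The mean list percentile of 74.7 is by score over all 12 libraries. By fold enrichment it was 69.3, over the 8 ApoE KO libraries only. Score medians in these 8 libraries were 55.5 to 78.0, so the 2 means differ in libraries as well as in measure. The share of members next to myeloid transcription factors, 3.00%, was 5.03% over either flanking gene. Over 27 named regions, 515 of 540 alternative values kept direction and side of the threshold, 16 dropped below it, 6 rose above it and 3 changed sign. Those 3 came from covered base pairs: Ptma 0.668 (genotype), Mdm1 1.24 (oxLDL) and Fam161a -8.55 (interaction). The normal score has another scale and gave no median here. The alternatives for members over 500 kb from a gene were added after seeing the data: 3.59 to 11.9 over settings and 7.00 to 14.1 with 1 library left out. The cause of these changes was not tested.

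Same-numbered ApoE KO libraries did not deviate together, with correlations of -0.10 to 0.06 over 17343 regions. This check cannot tell whether same-numbered libraries shared an animal or batch. With the replicate block, 3 regions were called for genotype, 1 for oxLDL and 0 for the interaction, and both genotype calls among members remained. Depth is unknown, and leaving out libraries leaves few samples, so lost calls do not show that a difference is absent.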
